A study of Mus musculus with 35 samples.

Results

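The control clusters are the places in the mouse genome where RNA was recovered by cross-linking from cells that expressed only a green fluorescent protein with a nuclear localisation signal (GFP-NLS). All 2196 clusters of the pooled control were taken, and they are a small share of the 389970 regions formed by them and the clusters of 8 proteins. The tags of every other library were counted inside each control cluster on the same strand. The libraries were made by iCLIP from P19 cells, a mouse embryonal carcinoma line, in which a GFP-tagged protein was expressed from a bacterial artificial chromosome, irradiated at 254 nm and purified with an antibody against GFP. NXF1, the mRNA export receptor, was represented by 3 libraries. The 7 SR proteins, which bind RNA and act in splicing and export, were represented by 28 libraries, with 4 for SRSF1, 5 for SRSF2, 3 for SRSF3, 3 for SRSF4, 4 for SRSF5, 3 for SRSF6 and 6 for SRSF7. Every line, the control included, carried a GFP transgene in the same cell background. The control had 4 libraries, which were used only as their sum, so the control has 1 value per cluster and no replicate error.

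In iCLIP, ultraviolet light joins a protein to the RNA it touches, and reverse transcription stops next to that position, so each cDNA (here a tag) marks a contact to the nucleotide. A protein that has no RNA binding role of its own should bring down little RNA, and what such a library holds can include abundant RNA that sticks to the beads or cross-links easily. Ribosomal RNA, small nuclear and nucleolar RNAs, 7SK and transfer RNAs are the most abundant short or structured RNAs of a mammalian cell, and they are commonly seen at low level in such controls.

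The libraries listed between 13038 and 4459523 tags, with a median of 237488, and the pooled control listed 21880 tags at 7025 positions. The deposited positions had passed a filter of the authors, so 0 is written where a file lists no position in the cluster, and the listed total does not measure sequencing depth. Values are given as CPM, the tags in 1000000 listed tags. All control tags lay in the control clusters. The library labelled SRSF1 replicate 4 listed 14900 tags and stood apart at several narrow clusters, so SR protein ranges are also given without it where it set the highest value. The headers inside the files of the libraries labelled SRSF2 replicates 2 and 5 name SRSF1. Without these 2 libraries, 185 control clusters were called higher and 7 lower in NXF1, against 222 and 7 with them. The 10 pluripotency genes examined all had tags in the libraries (16448 in all), among them Pou5f1 with 3096. The lowest of them were Zfp42, with 9 tags in 3 libraries, and Dppa5a, with 3 tags in 1. Of 12 genes of other cell types, 7 had tags (2288 in all, of which Vim had 2015 and Tubb3 178), and Alb, Afp, Myog, Neurod1 and Sox17 were listed at 0.

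Control tags were concentrated in few clusters. The clusters held between 1 and 1884 control tags, with a median of 3, and their width was between 1 and 438 nt, with a median of 2 nt. The 1068 clusters with 2 control tags made up 9.76% of the control tags. The 33 clusters with 100 tags or more held 42.0%, and the 10 largest held 26.8%. In annotated genes, control tags lay on the sense strand in 7253 cases and on the antisense strand in 68.

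The label of a shared background held for a part of the clusters. Of the 2196 clusters, 923 (42.0%) had no tag in any of the 31 libraries, and these held 11.1% of the control tags. The 80 clusters that had tags in all 31 libraries held 30.7% of the control tags, and the 338 clusters seen in 25 to 30 libraries held 32.1%. Tags were present from both NXF1 and SR proteins in 777 clusters, from SR proteins but not NXF1 in 494, and from NXF1 alone in 2. A cluster called for at least 1 of the 8 proteins overlapped 1314 control clusters, 859 of them for NXF1 and between 846 (SRSF2) and 1037 (SRSF4) for a single SR protein. Shared clusters were thus the wide and strong ones, with a median width of 32.5 nt and 19.5 control tags in the group seen in all libraries, against 1 nt and 2 control tags in the group seen in none.

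**Figure D1:**
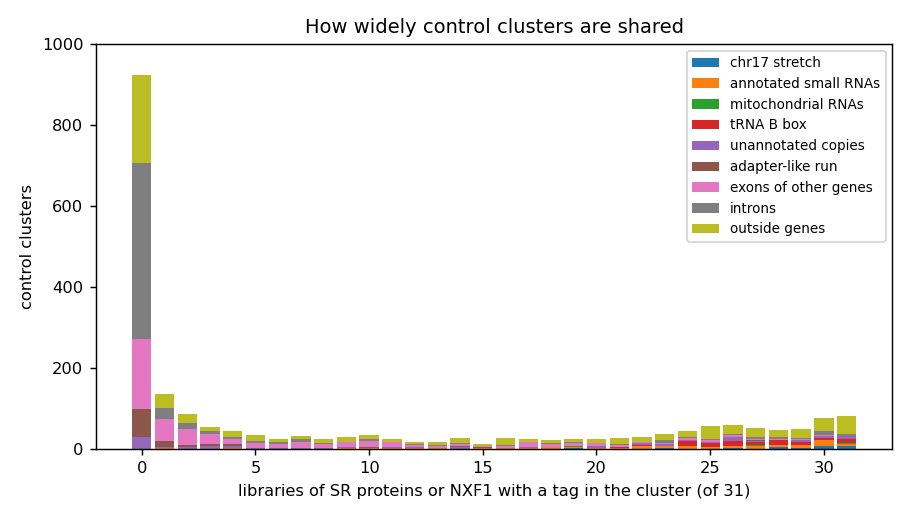
Number of control clusters (vertical axis) by the number of the 31 NXF1 and SR protein libraries with at least 1 tag in the cluster (horizontal axis), stacked by RNA family. The bar at 0 holds 923 clusters, mostly of introns, exons and places outside genes, and a smaller rise at 25 to 31 libraries holds most clusters of the chromosome 17 stretch, small RNAs and tRNA-like sequence.

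The clusters were divided into families by annotation and sequence. The first was a stretch of chromosome 17 at chr17:39979939-39985047 on the plus strand (mm9), 5109 nt long and not annotated as a gene in the annotation used. It was drawn up to the border of AY036118, which is annotated on the opposite strand, and RefSeq (GRCm38.p6) lists the 18S ribosomal RNA pseudogene Rn18s-rs5 overlapping that gene. In the sequence search the stretch was entered under the name of ribosomal DNA. This name was not tested, since no ribosomal DNA reference was used. The stretch held 22 clusters over 2211 nt and 4738 control tags, 21.7% of all (95% Wilson interval 21.1 to 22.2, counting error only). Annotated small RNAs held 93 clusters and 13% of the control tags, and mitochondrial RNAs 14 clusters and 1.28%. A further 84 clusters with a tRNA B box held 2.78%, and 121 unannotated clusters with at least 40 letters at 90% identity to an annotated small RNA or to the stretch held 2.57%. Clusters followed by an adapter-like run of letters, described below, numbered 106 and held 15.8% (15.3 to 16.3). The rest lay in exons of other genes (482 clusters, 5.96%), in introns (574 clusters, 10.8%) and outside genes (700 clusters, 26.1%). Likeness was sought only to annotated small RNA genes and to the stretch. Copies of other RNAs, such as long ribosomal RNA without an annotated gene, would therefore be counted among the rest.

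Sequences are shown for the families on which the results turn, taken from mm9, with 30 letters or fewer for each. The chromosome 17 stretch is shown at the position with most control tags of its 2 largest clusters, chr17:39984605-39984634 and chr17:39984458-39984487, both on the plus strand and without capitals because no motif is marked.
c0960: agctctttctcgattccgtgggtggtggtg
c0959: tttgggttccggggggagtatggttgcaaa

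For the adapter-like run, the 30 letters after the position with most control tags are shown because the clusters share them while lying on different chromosomes, at chr1:109664098-109664127 (c0085, plus strand), chr10:115093516-115093545 (c0268, plus strand), chr6:87070165-87070194 (c1730, plus strand) and chrX:57400640-57400669 (c2144, minus strand, in Mcf2). Capitals mark letters equal to the majority letters GGTTCAGCAGGAATGCC.
c0085: gcGGTTCAGCAGGAATctCtggactgtctg
c0268: acGGTTCAGCAGGAATGatgtggtgtgctg
c1730: ccGTTCAGCAGGAATGCCaggaccggctcc
c2144: gaGGTTCAGaAGGAATGCggtaagggctct

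For tRNA-like clusters, capitals mark the B box, the internal promoter letters that RNA polymerase III genes of the tRNA type carry in the T arm, at chr13:22027368-22027396 (c0571, minus strand), chr9:123438545-123438573 (c2107, minus strand) and chr13:23559004-23559032 (c0590, plus strand).
c0571: ggagaccggGGTTCGATTCCccgacgggg
c2107: aagattctaGGTTCGACTCCtggctggct
c0590: taggtcgctGGTTCGAATCCggctcgaag

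Between 2.88% and 57.4% of a library's tags lay in the control clusters. The share was 39.8%, 48.8% and 52.9% in the 3 NXF1 libraries (mean 47.2% ± 6.66, SD, n = 3), against a lowest of 2.88%, a median of 32.6% and a highest of 57.4% in the 28 SR protein libraries. The groups overlapped. By protein, the mean share was 41.9% ± 15.6 for SRSF1 (SD, n = 4), 41.5% ± 16 for SRSF5 (n = 4), 30.9% ± 20 for SRSF4 (n = 3), 27.6% ± 17.3 for SRSF2 (n = 5), 26.9% ± 18.2 for SRSF7 (n = 6), 8.82% ± 1.36 for SRSF6 (n = 3) and 8.12% ± 5.71 for SRSF3 (n = 3). In this order, neighbours differed by less than the spread between libraries of 1 protein (pooled SD 15.2 points), except for SRSF7 and SRSF6, which differed by slightly more. No test is given for these shares, because the clusters were chosen with results of these libraries known.

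The share moved with the listed total. It was 32.3% to 57.4% in the 17 libraries with up to 250000 tags, which include all 3 NXF1 libraries, and 2.88% to 10.1% in the 10 libraries with 1000000 tags or more. Spearman's rho of share and listed total was −0.805 over the 31 libraries, as a description of points that share their clusters. Among libraries of 50000 to 250000 tags, the mean was 47.2% in NXF1 (n = 3) and 44.3% in SR proteins (n = 8, 32.3% to 57.4%), a difference of 2.83 percentage points, against 19.5 points over all libraries. The difference at matched totals is smaller than the SD of 6.66 points between NXF1 libraries, and the part of the listed total in the difference over all libraries was not tested.

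**Figure D2:**
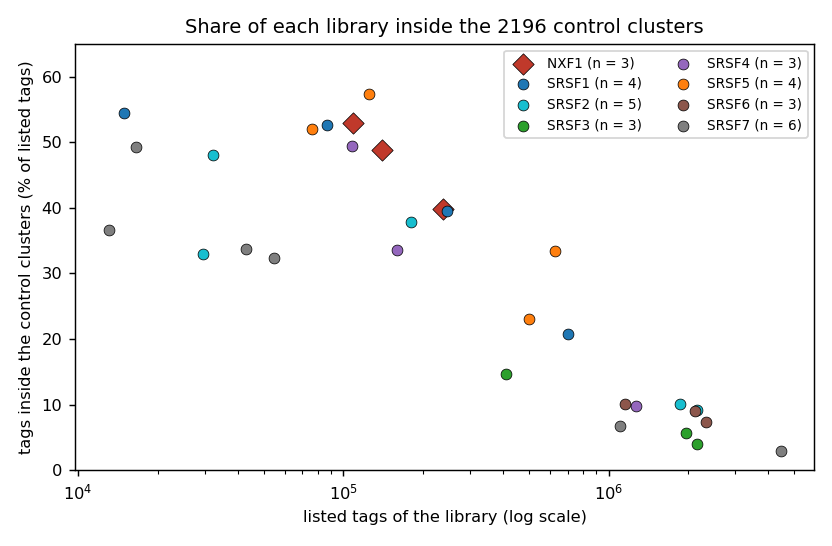
Share of listed tags inside the 2196 control clusters (vertical axis, percent) against the listed total of the library (horizontal axis, log scale), 1 point per library. The 3 NXF1 libraries at 39.8% to 52.9% sit among SR protein libraries of like total, and the 10 libraries with 1000000 tags or more lie at 2.88% to 10.1%.

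Cluster by cluster, the NXF1 libraries were compared with the mean of the 7 SR proteins by limma voom, fitted on all regions with Benjamini-Hochberg adjustment over all of them. Of the 2196 control clusters, 656 passed the filter on low values. Of these, 222 were higher in NXF1 (33.8%), against 10.4% of all 6543 regions tested, and 7 were lower (1.07%), against 1.62% of all regions. The median log2 difference was 1.83 over the control clusters tested and −1.02 over all regions tested. All 3 NXF1 libraries lay above all 28 SR protein libraries in 54 control clusters (8.23%), against 3.21% of all regions. The filter asked for 42.1 CPM in 3 libraries of any protein, so the 3 NXF1 libraries could meet it alone. SNORD75 passed in this way, with 75.8, 57.0 and 64.4 CPM in NXF1 and 40.1 as the highest SR protein value. The higher calls and these 54 clusters include such cases. Without the CPM minimum, 50 of 940 clusters were higher, against 306 of 119589 regions. With trimmed-mean scaling, 93 of the 656 were higher (14.2%), against 4.54% of all regions. The count rested on each NXF1 library, since 124, 91 and 82 clusters were called higher without NXF1 replicates 1, 2 and 3. Of all regions, 385 of 6449, 333 of 6451 and 347 of 6463 were called higher in these fits. At matched listed totals, 148 of 572 clusters tested were higher (background 19.9%) and 79 were lower (background 13.6%), and the median log2 difference was 0.66 over the clusters and 0.05 over all regions. Of the 222 higher calls, 122, 86 and 78 were kept without NXF1 replicates 1, 2 and 3, and 48 without the CPM minimum. A cluster named below without values from such fits may therefore not keep its call. The study calls its replicates biological without saying whether they were separate cultures, so p-values measure the spread between these libraries.

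The chromosome 17 stretch took a larger share of the NXF1 libraries than of any SR protein library. Its share was 15.2%, 19.1% and 20.5% in NXF1, against 0.363%, 3.77% and 9.58% (lowest, median and highest) in SR proteins and 21.7% in the pooled control. NXF1 and SR protein libraries did not overlap, also at matched listed totals, where SR proteins had 3.26% to 9.48%. The cluster c0960 (chr17:39984579-39985016), the strongest of the control with 1884 tags, had 47337, 52358 and 63629 CPM in NXF1, against 970, 11121 and 42719 in SR proteins and 86106 in the control. Its log2 difference was 2.24 ± 0.739 (SE; limma adjusted p = 0.0433), a call lost without any 1 of the 3 NXF1 libraries (adjusted p = 0.152, 0.166 and 0.195) and without SRSF3 replicate 2, SRSF4 replicate 2, SRSF5 replicate 3, SRSF6 replicate 1 or SRSF6 replicate 3 (adjusted p between 0.0519 and 0.054), and without the CPM minimum (adjusted p = 0.656). The preceding cluster c0959 (chr17:39984352-39984559, 1067 control tags) had 35193, 53676 and 55635 CPM in NXF1, against 570, 6557 and 19836 in SR proteins. Every NXF1 library lay above every SR protein library there, with a log2 difference of 3.03 ± 0.791 (limma adjusted p = 0.00916, or 0.0745 and 0.0777 without NXF1 replicates 2 and 3 and 0.131 without the CPM minimum).

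These 2 clusters held 62.3% of the control tags of the stretch. Of the 22 clusters, 13 were called higher in NXF1 and 0 lower, against 10.4% and 1.62% of all regions. At matched listed totals 19 were higher, against 19.9% of all regions. Refitted without NXF1 replicate 1, 2 or 3, the stretch had 5, 2 and 2 higher calls. Over all regions there were 385 of 6449, 333 of 6451 and 347 of 6463. The stretch had 4 with limma-trend, 3 without the CPM minimum and 17 without SRSF1 replicate 4. Over all regions there were 267 of 6543, 306 of 119589 and 692 of 6480. The log2 differences of the 22 clusters were 1.12 to 6.63, all above 0, and 6 clusters had tags in all 31 libraries.

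Mitochondrial RNAs were the family with the highest median log2 difference (3.69). They held 2.23%, 2.33% and 2.83% of the NXF1 tags, against 0.0879%, 0.407% and 2.30% in SR proteins and 1.28% in the control. The groups overlapped only at the highest SR protein libraries. Of 14 clusters, 10 were higher and 0 lower, against 10.4% and 1.62% of all regions. All 8 clusters in mitochondrial tRNAs, which carry amino acids in the organelle's own translation, were higher. The serine tRNA mt-Ts2 (chrM:11632-11633) had 686, 1119 and 1371 CPM in NXF1, against 0, 54.0 and 477 in SR proteins, without overlap (log2 4.41 ± 0.738, limma adjusted p = 0.00011). The leucine tRNA mt-Tl1 (chrM:2699-2714) had 2455, 2786 and 3937, against 0, 248 and 1490, with a log2 difference of 3.65 ± 0.918 (limma adjusted p = 0.00677, or 0.0508 and 0.0701 without NXF1 replicates 2 and 3 and 0.0599 without the CPM minimum). In the large ribosomal RNA mt-Rnr2 (chrM:2587-2658), the values of 7247, 7160 and 6338 in NXF1 lay within the SR protein range of 233 to 18181, and the difference did not pass (log2 2.02 ± 0.764, limma adjusted p = 0.0802). The family had 7, 4 and 4 calls without NXF1 replicates 1, 2 and 3. Of all regions, 385 of 6449, 333 of 6451 and 347 of 6463 were higher in these fits. At matched listed totals 13 of the 14 were higher, against 19.9% of all regions.

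**Figure D3:**
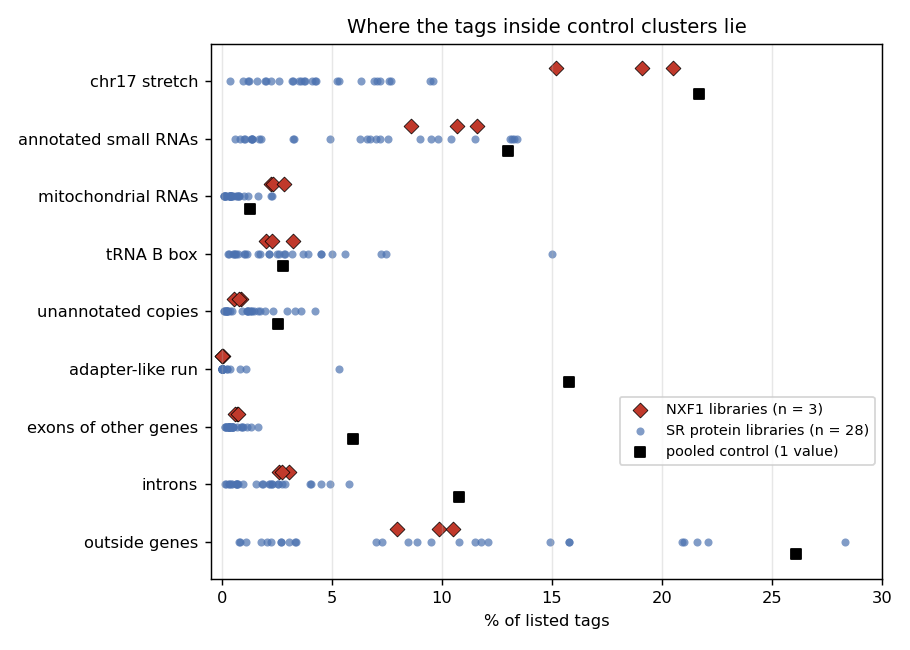
Share of listed tags (horizontal axis, percent) in each family of control clusters, with 1 point per library for NXF1 (n = 3) and SR proteins (n = 28) and 1 value for the pooled control. In the chromosome 17 stretch NXF1 (15.2% to 20.5%) lies to the right of all SR protein libraries, whereas the adapter-like run holds 15.8% of the control and up to 5.31% of a library.

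Annotated small RNAs held 8.58%, 10.7% and 11.6% of the NXF1 tags, against 0.616%, 6.46% and 13.4% in SR proteins and 13% in the control, and the groups overlapped. Of 83 clusters tested, 37 were higher in NXF1 and 0 lower, with 18, 16 and 19 higher without NXF1 replicates 1, 2 and 3. At matched listed totals, 39 of 81 were higher and 5 lower, against 19.9% and 13.6% of all regions. Small nucleolar RNAs, which guide the modification of ribosomal RNA, had 20 of 30 clusters higher, whereas spliceosomal and other small nuclear RNAs had 6 of 29. Over all regions tested, 10.4% were higher. The nucleolar U3 RNA at chr10:39978394-39978462, which acts in ribosomal RNA processing, had 5445, 6954 and 5777 CPM in NXF1, against 0, 954 and 3322 in SR proteins. NXF1 lay above every SR protein library, but the difference did not pass (log2 3.02 ± 1.14, limma adjusted p = 0.0812).

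The spliceosomal RNA U5 was present as 7 clusters with 431 control tags, of which 1 was called higher. The 12 clusters of U6 held 111 control tags, with 0 of 9 tested called. The cluster in U4 at chr5:115939523-115939552, the partner of U6 before splicing, had 2754, 4211 and 3873 CPM in NXF1, against 0, 497 and 2518 in SR proteins (log2 3.16 ± 0.778, limma adjusted p = 0.00569). U7, which acts in histone mRNA processing, had 2729, 4439 and 4848 in NXF1, against 0, 916 and 8702, and did not pass (log2 2.33 ± 0.994, limma adjusted p = 0.12). Small nuclear RNA genes are repeated in the genome, and tags of near-identical copies cannot be told apart, with exact copies of the 30 letters for 14 of the 33 clusters.

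Among nucleolar RNAs, several narrow clusters separated the groups. SNORD20 (chr1:88248619-88248634, 11 control tags), a box C/D guide RNA, had 349, 570 and 276 CPM in NXF1, against 0, 68.7 and 250 in SR proteins (log2 2.36 ± 0.55, limma adjusted p = 0.00335). Snord1a (chr11:116535935-116535948, 7 control tags) had 400, 427 and 313 CPM in NXF1, against 0, 33.2 and 140 in SR proteins (log2 3.42 ± 0.649, limma adjusted p = 0.000424). In both, every NXF1 library lay above every SR protein library. Snord118 (chr11:68886948-68886975, 67 control tags), also called U8, did not follow them, with 0, 2622 and 2475 CPM in NXF1, against 0, 800 and 6059 in SR proteins (log2 0.02 ± 2.27, limma adjusted p = 0.996).

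The 5S ribosomal RNA genes are repeated, and the 30 letters of n-R5s2 (chrX:5684072-5684101) occur 46 times in mm9, so its tags cannot be assigned to 1 copy. It had 3251, 2038 and 2263 CPM in NXF1, against 0, 284 and 1749 in SR proteins, without overlap (log2 3.62 ± 0.748, limma adjusted p = 0.00107). RNase_MRP (chr4:43505713-43505743, 37 control tags), the RNA of an enzyme that cuts pre-ribosomal RNA, had 2788, 3755 and 3054 CPM in NXF1, against 0, 389 and 4357 in SR proteins, and passed although the ranges overlapped (log2 3.04 ± 0.797, limma adjusted p = 0.00925).

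7SK and 5.8S ribosomal RNA had other patterns. The cluster in 7SK (chr9:78023146-78023210, 278 control tags), a regulator of transcription elongation, had 3571, 6448 and 4140 CPM in NXF1, against 1306, 11727 and 69753 in SR proteins and 12706 in the control. NXF1 was in the lower part of the SR protein range, and the difference did not pass (log2 −0.76 ± 0.84, limma adjusted p = 0.505). The 5.8S ribosomal RNA gene n-R5-8s1 (chr18:73693103-73693153, 324 control tags) had 2434, 5643 and 2953 in NXF1, against 55.5, 625 and 50805 in SR proteins, and 16877 as the highest without SRSF1 replicate 4. Its values differed among the 8 proteins (limma F-test, adjusted p = 0.00122), but not between NXF1 and the SR mean (log2 2.07 ± 1.04, limma adjusted p = 0.171).

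Clusters with a tRNA B box differed in share among SR proteins, which also differed in listed total. The letters GGTTCGA, any letter and TCC were found in this order on the strand of the cluster within 60 nt of 85 control clusters (3.87%), against 0.0291% of the other regions. For the 84 clusters of this family, SRSF5 held a mean of 8.56% ± 4.51 of its tags (SD, n = 4), against 2.51% ± 0.627 for NXF1 (n = 3) and 0.599% ± 0.0486 for SRSF6 (n = 3). Of 81 clusters tested, 80 differed among the 8 proteins, against 73.0% of all regions. Over all control clusters, 513 of 656 (78.2%) differed, close to that background. NXF1 was higher in 19 and lower in 1 of the 81, against 10.4% and 1.62% of all regions. At matched listed totals, 10 of 79 were higher and 8 lower (median log2 difference 0.03), against 19.9% and 13.6% of all regions. The 1 called lower over all libraries was c0590 (chr13:23558974-23559022), with 135, 185 and 193 CPM in NXF1, against 71.3, 645 and 10451 in SR proteins (log2 −2.02 ± 0.653, limma adjusted p = 0.038). In c2107 (chr9:123438552-123438629, 40 control tags), the mean of the libraries was 3.27 times the control, with 590, 1411 and 1352 in NXF1, against 460, 4675 and 22780 in SR proteins and 1828 in the control.

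The adapter-like run was seen mostly in narrow control clusters with many tags. Among the 45 control clusters of up to 6 nt with 20 tags or more, the 7 letters GGTTCAG lay within 24 nt after the position with most control tags in 19 (42.2%), and at least 12 of the 17 majority letters in 25 (55.6%). These letters were themselves taken from the 45 clusters, as their most common 7 letters and the majority letters of the 19 that carry them, so both shares describe the clusters from which the letters came. The run was present in 13.9% of narrow clusters with 5 to 19 tags, in 3.89% of those with 2 to 4 tags, in 0.524% of clusters over 6 nt and in 0.0934% of the other regions. Letters were matched on the strand of the cluster, and the 2 motifs overlap by construction. They are the letters of a widely used sequencing adapter as it is commonly listed, which is background and was not read from the files used here, and a role of such an adapter was not tested. Another 7 letters, GCGGTTC, the most common in the 20 clusters without the run, followed in 12 of the 45 clusters, 6 of them without the run. GCGGTTC ends in GGTTC, with which the majority letters begin, so it is not separate from the run. Likeness to the start of 5.8S ribosomal RNA (14 of 20 letters) was present in 6. None of the 3 features was present in 8.

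The 106 clusters with the run were spread over the genome, with 69 outside genes and 28 in introns, and each had 30 letters that occur once in mm9. Of these, 68 had no tag in any library and 1 had tags in 25 or more. This one was c0085 (chr1:109664092-109664097), with 101, 292 and 184 CPM in NXF1, against 0, 31.9 and 11611 in SR proteins (5557 as the highest without SRSF1 replicate 4) and 33227 in the control. The intronic cluster in Comp (chr8:72898691) had 33.7, 78.4 and 55.2 in NXF1, against 0, 1.89 and 8792 in SR proteins (3322 without SRSF1 replicate 4) and 13574 in the control. Both clusters were named for their control tags, so the height of the control there is part of how they were chosen. As a family, the run held 0.0168%, 0.0427% and 0.0258% of NXF1 tags, against 0%, 0.00766% and 5.31% of SR protein tags and 15.8% of control tags, and 1.11% was the highest without SRSF1 replicate 4. Of 14 clusters tested, 0 were called by limma voom.

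**Figure D4:**
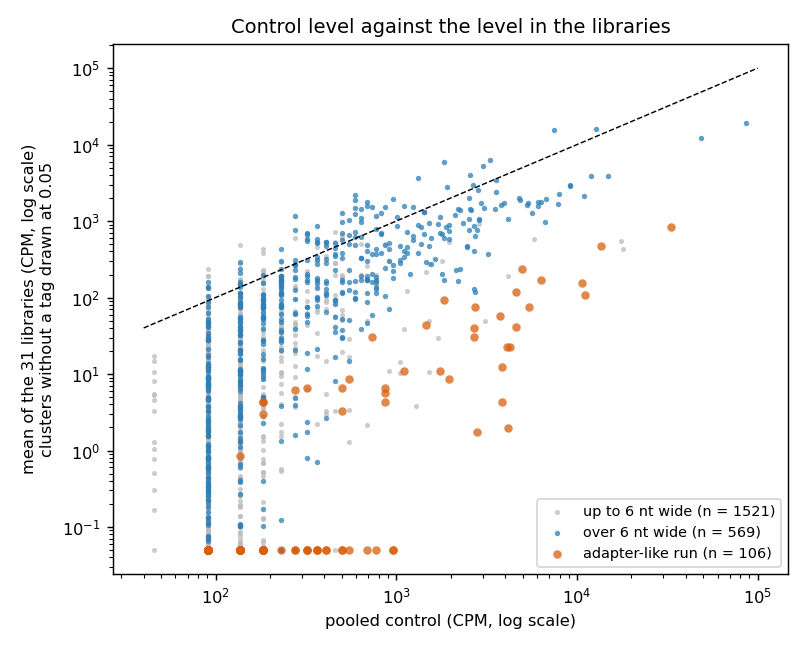
Mean of the 31 libraries (vertical axis, CPM, log scale, clusters without a tag drawn at 0.05) against the pooled control (horizontal axis, CPM, log scale) for the 2196 control clusters, with equality as a dashed line. Clusters over 6 nt follow the line from below, and the 106 clusters with the adapter-like run lie far under it or have no library tag.

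The ratio of library to control level was read as a description only, since the clusters and the minimum of 10 tags were chosen on control tags and all control tags lie in them, which by itself sets most ratios below 1. Over the 287 clusters with 10 control tags or more, the mean of the 31 libraries was 0.0785, 0.278 and 0.569 times the control at the quartiles. The ratio was above 1 in 40 clusters and below 0.1 in 77, and 7 had no library tag. Of these 7, the 5 with most control tags all carried the adapter-like run, among them those in introns of Myh11 (21 control tags) and E130114P18Rik (12 control tags). The 5 highest were c0288 outside genes (chr11:4771256-4771282, 3.69 times), c2107 (3.27), an exon of D730040F13Rik (3.14), c0576 (2.72, with a B box) and c2083 (chr9:110144308-110144329, 2.59, with 35 exact copies of its letters). At c0288, SRSF1 replicate 4 had 19396 CPM, against 9121 CPM as the highest SR protein value without it. All these ratios include that library, so their order may rest on it.

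Outside genes and outside the other families, 98 of 290 clusters tested were higher in NXF1 and 3 lower, but at matched listed totals 48 of 248 were higher and 47 lower. All regions had 10.4% higher and 1.62% lower, and 19.9% and 13.6% at matched listed totals. The smallest p-value of all control clusters belonged to c1733 (chr6:89713878-89713893, 5 control tags), with 602, 898 and 846 CPM in NXF1, against 0, 7.2 and 416 in SR proteins (log2 5.12 ± 0.614, limma adjusted p = 1.41e-06). The call held in each alternative fit that includes NXF1 and without any 1 library. The cluster c1733 also carried the likeness to the start of a ribosomal RNA described above (14 of 20 letters). This likeness was present in 2.41% of all control clusters and in 0.551% of the other regions. It did not define a family, and its part in the call was not tested. In c0409 (chr11:97631179-97631182, 4 control tags), the values were 181, 321 and 644 in NXF1, against 0, 13.6 and 207 in SR proteins (log2 3.53 ± 0.594, limma adjusted p = 0.000115). The strong clusters c1943 (chr8:82003455-82003457, 394 control tags) and c0348 (chr11:62054000-62054004, 382 control tags) were narrow and did not pass. Their highest SR protein values, 5772 and 9195 CPM, were those of SRSF1 replicate 4, with 2356 and 4852 as the highest without it.

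Wide clusters outside genes included strong ones seen in all 31 libraries. Whether they are copies of long ribosomal RNA was not tested. At chr3:5860597-5860801 (c1303, 175 control tags, 205 nt), the values were 8876, 8378 and 7985 CPM in NXF1, against 63.0, 1178 and 5443 in SR proteins, without overlap (log2 2.81 ± 0.727, limma adjusted p = 0.00847). At chr11:108873210-108873356 (c0444, 238 control tags), they were 5373, 6889 and 6071 CPM in NXF1, against 82.5, 1252 and 4758 in SR proteins, also without overlap (log2 2.44 ± 0.766, limma adjusted p = 0.0327). The adjacent c0443 (chr11:108873131-108873192, 263 control tags) had 4097, 5429 and 4314 CPM in NXF1, within the SR protein range of 152 to 11597, and did not pass (log2 1.07 ± 0.727, limma adjusted p = 0.288). A cluster with the opposite order was c1770 (chr6:128749482-128749532, 164 control tags), with 1339, 2216 and 1159 CPM in NXF1, against 531, 14762 and 47678 in SR proteins, which did not pass either (log2 −2.34 ± 0.918, limma adjusted p = 0.0918).

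Only 7 clusters were called lower. In simulated data the fit found fewer of the decreases than of the increases, so the numbers of higher and lower calls are not on an equal footing. The smallest p-value among the 7 was that of c1694 (chr6:47689903-47689939), with 135, 164 and 101 CPM in NXF1, against 69.2, 602 and 1777 in SR proteins (log2 −2.0 ± 0.486, limma adjusted p = 0.00515, or 0.0655 without NXF1 replicate 3, 0.308 with coding totals, 0.336 without the CPM minimum and 0.132 with limma-trend). Its 30 letters have 79 copies in mm9. NXF1 lay in the lower part of the SR protein range but above its lowest library.

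The other 6 lower clusters were c0466, c0971, c1566 and c0284 outside genes, c0590 with the B box and the intron of Ntm. In c1566 (chr5:60509540-60509553, 6 control tags), NXF1 had 42.1, 64.1 and 46.0 CPM, against 13.9, 596 and 7785 in SR proteins, with 4591 as the highest without SRSF1 replicate 4 (log2 −3.0 ± 0.956, limma adjusted p = 0.0353), and the call was lost without SRSF1 replicate 4 (adjusted p = 0.061) and without NXF1 replicates 1, 2 or 3 (adjusted p = 0.155, 0.102 and 0.136). Of the 7 calls, 2, 2 and 0 were kept without NXF1 replicates 1, 2 and 3, 3 in the later runs, 7 at matched listed totals, and 0 with coding totals as scale, without the CPM minimum or with limma-trend.

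**Figure D5:**
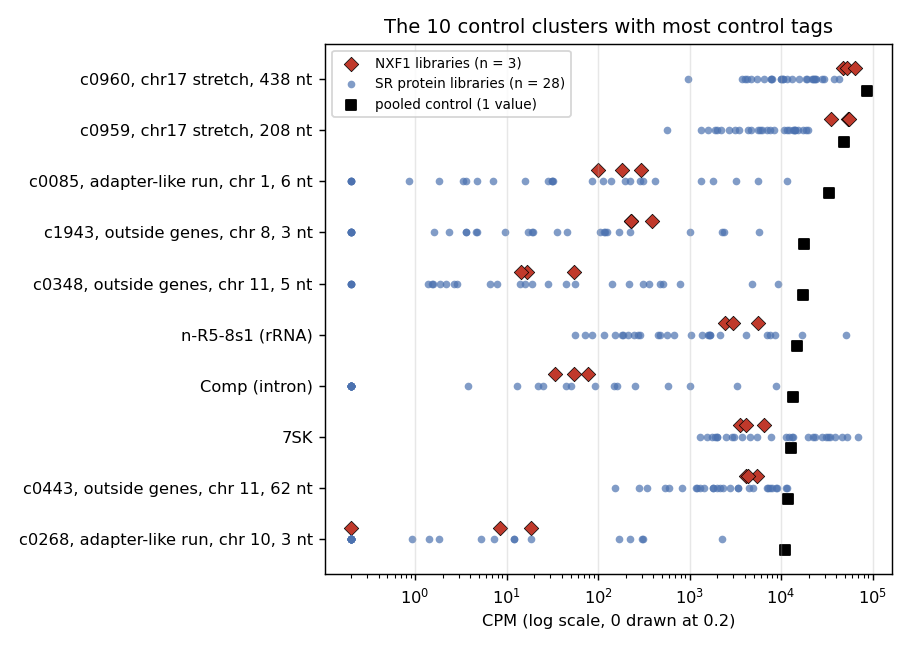
The 10 control clusters with most control tags (CPM, horizontal log axis, 0 drawn at 0.2), with NXF1 libraries (n = 3), SR protein libraries (n = 28) and the pooled control (1 value). In c0959, n-R5-8s1 and 7SK some libraries lie above the control, whereas in narrow clusters such as c0085 and c0268 the control lies above every library.

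Within genes, exons and introns of other genes contributed many weak clusters. In all, 1082 genes had a control cluster, 104 of them 2 or more. Introns had 435 of 574 clusters without a library tag. Of 56 tested, 18 were higher and 1 lower, the intron of Ntm, against 10.4% and 1.62% of all regions. At matched listed totals, 9 of 50 were higher and 9 lower, against 19.9% and 13.6% of all regions. Introns of Cdk8 and 2610528E23Rik were among the strongest, and at Cdk8 (chr5:147072805-147072879, 116 control tags) the values were 2501, 3227 and 3155 in NXF1, against 168, 957 and 5013 in SR proteins (log2 1.63 ± 0.782, limma adjusted p = 0.156). The 3′ UTR of Lars2, the mitochondrial leucyl-tRNA synthetase, had 888, 584 and 368 in NXF1, against 0, 120 and 794 in SR proteins (log2 2.66 ± 0.846, limma adjusted p = 0.0351). This call was lost without any 1 NXF1 library (adjusted p = 0.219, 0.149 and 0.0885) at matched listed totals (adjusted p = 0.108), with trimmed-mean scaling (0.094), with limma-trend (0.14), without the CPM minimum (0.568) and without SRSF7 replicate 6 (0.0502).

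Few control clusters lay in gene groups that are abundant in the libraries, and in CPM the control fell inside the library range for some of them. Of the abundant nuclear RNAs listed for this, 8 were found by name in the annotation, including Malat1 and Neat1. Of these 8, only Meg3 had a control cluster. The 8 together had 3759 to 41703 CPM in the libraries, all above the 137 CPM of the control. 7SK and RNase_MRP, also on the list, are annotated under other names than the list used and are not among the 8. Their clusters, described above, held 278 and 37 control tags. Of 154 genes for ribosomal proteins and other abundant mRNAs, 16 had a control cluster, and the summed level of the group was 2257 to 31109 CPM in the libraries, a range that includes the 2742 CPM of the control. Of 11 clusters tested there, 4 were higher in NXF1 and 0 lower, against 10.4% and 1.62% of all regions. Replication-dependent histone genes had 20 clusters in 15 of 67 genes and 614 to 45132 CPM in the libraries, a range that includes the 3839 CPM of the control. Of 15 histone clusters tested, 2 were higher, against 10.4% of all regions. Of 12 SR protein genes, only Srsf5 had a control cluster, and the group had 470 to 73542 CPM in the libraries, against 137 in the control.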

How the data were processed

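iCLIP libraries of GFP-tagged NXF1 and SRSF1 to SRSF7 and a pooled GFP-NLS control were used, with groups from the sample labels. The deposited values are whole signed scores per position, the number of cDNAs with the strand as sign. Per the file headers, the authors kept positions at an FDR of 0.05 over 100 permutations with a 15-nt flank, and the control sums 4 libraries. The labels name CASAVA 1.4 and mm9. 

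Absolute values were summed by strand in each control cluster. Clusters of the 8 proteins within 30 nt were merged into 388969 regions. Regions with at least 42.1 CPM (10 tags in the median library) in 3 libraries and 15 tags in all entered limma 3.58.1 voom (R 4.3.3) with listed totals as library size, threshold 0.05. The values are filtered scores, not raw read counts. Clusters were matched with blastn 2.17.0 to annotated small RNAs (GENCODE vM1, mm9), and gene neighbours were read from RefSeq. Intervals are 95% Wilson intervals. No 2 libraries had identical tags. The fit was tested on simulated data. Replicate numbers did not pair the libraries.

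Members and lists were chosen with earlier results of these data known, so the planned permutation test of the summed share is not given. Named clusters were the 10 with most control tags, the strongest of each RNA class, the 5 smallest p-values in each direction and the 5 lowest and highest ratios to control. Others named were chosen after their values were seen.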

Additional observations from a re-analysis of the deposited data

Results flagged for a closer look

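In 40 sets of replicates of 1 protein examined for a library far from the others, 4 stood out. The nominal rate of about 1 in 20 need not hold for shares that move with the listed total, so this is a description. SRSF1 replicate 4 had 5.31% of its tags in clusters with the adapter-like run, against 0.000711% to 0.0621% in the other SRSF1 libraries. SRSF7 replicate 5 had 1.11%, against 0.0% to 0.371%, and SRSF2 replicate 3 had 0.822%, against 0.000419% to 0.233%. These 3 libraries are small, and the share in the run had a Spearman's rho of −0.886 with the listed total over 31 libraries, as a description. SRSF5 replicate 1 had 7.04% of its tags in the chromosome 17 stretch, against 3.75% to 4.27% in the other SRSF5 libraries.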

How the results depend on the processing

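No call higher in NXF1 turned its direction under any alternative. The 229 control clusters called became 104 with trimmed-mean scaling (93 higher, 11 lower), 395 with totals over coding genes as scale, 50 without the CPM minimum, where 119589 regions were tested, and 57 with limma-trend, and 82 to 254 when 1 library was left out. Trimmed-mean scaling and coding totals moved the median of all regions to −1.53 and 0.35, against −1.02. With the replicate block, 161 were higher and 11 lower. The adjusted p of c0960 was 0.0632 in that fit. Replicate numbers did not pair the libraries (r of the same number −0.426 to 0.431, and 8 of 31 libraries matched best with their own number). Differences among the 8 proteins were called in 299 clusters at matched listed totals and in 264 in the 2013 runs, which hold no NXF1, against 513. Of the named clusters, 15 were called, 5 without the minimum, 8 with limma-trend and 5 to 17 with 1 library left out. The difference in share of 19.5 points was 2.83 at matched totals, 18.9 with the block and 16.6 to 23.1 with 1 library left out, and the range of protein means of 39.1 points was 22.5 at matched totals and 16.2 for listed positions in place of tags. Uncalled log2 differences that changed sign were 7SK (0.41 with coding totals), c0348 (−0.13), c0268 (−0.06), c2144 (−0.53) and c0533 (−0.90) with limma-trend, and c0085 (−0.08), c0348 (−1.71), the Comp intron (−0.62) and c0443 (−0.37) at matched totals. The cause of these changes was not tested. Clusters with the run were left out in an alternative chosen after seeing the data, which gave 19.7 points. Low values limit what can be seen, since only 656 control clusters could be tested.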
